A study of Oryza sativa with 20 samples.

Results

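Heated rice shoots sampled at 2 h were set against heated shoots sampled at 1 h to describe which transcripts changed between these times of recovery from a short heat treatment. Both groups were whole shoots of wild-type Oryza sativa, 2 weeks old, hung for 10 min in water at 42 °C with the pot inverted and then kept at 30 °C, for 1 h 50 min in the 2 h group and for 50 min in the 1 h group. Control shoots were inverted and immersed in the same way at 22 °C and kept at 30 °C for the same times. Each group held 2 libraries of 3 shoots each, so the comparison rested on 4 of the 20 libraries of the series, and the 4 control libraries of 2 h and 1 h were set beside it. The controls had moved from 22 °C to the warmer 30 °C, so a response to heat cannot be told apart from the controls' response to their own bath or to that move, and an hour of the day had also passed.

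Expression was measured by RNA sequencing and deposited as FPKM, fragment counts scaled by transcript length and library total, with 1 value per group that the authors had made from both libraries. There is therefore no error beside any level, no difference between 2 h and 1 h has a replicate check, and no p-value is given for it. Depth per library is unknown. For each of 37248 gene IDs the row of highest mean FPKM was taken, and 22704 genes whose FPKM averaged 1 or more across all 10 groups were compared. The step from 1 h to 2 h is log2((FPKM at 2 h + 1) / (FPKM at 1 h + 1)), which understates the change of low genes. A gene is called higher or lower at 2 h when this step is at least 1 in size, a 2-fold difference. Heated against control differences at a single time do have a test: the authors' deposited table holds its q values, and those below 0.05 are taken as calls.

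Plants meet a rise in temperature with heat stress transcription factors, which bind elements in the promoters of chaperone genes and raise their transcription within minutes. The chaperones then hold unfolded proteins (small heat shock proteins), refold them (HSP70 with HSP40 partners, and the chaperonins), mature signalling proteins (HSP90) or pull aggregates apart (HSP100). Once the heat has passed, transcription of these genes is shut off and their mRNA decays. The files do not pair gene IDs with names, so 28 lists of IDs were written from background knowledge of rice and were not checked against an annotation. Of their 261 IDs, 260 were in the table and 235 passed the filter. Some members of the heat shock lists were near 0 in every control and passed only through their heated values.

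Between 1 h and 2 h, 1998 of 22704 genes (8.80%) were lower and 1574 (6.93%) were higher in the heated shoots. In the controls 562 genes (2.48%) were lower and 647 (2.85%) were higher at 2 h than at 1 h. The median step over all genes was 0.07 in the heated shoots and 0.00 in the controls. In these bulk shoots fewer cells of a type and less RNA per cell cannot be told apart. Summed over all rows, FPKM came to 812316 in heated shoots at 2 h and 1233043 in heated shoots at 1 h, and to 698681 and 861006 in the controls at 2 h and 1 h. Dividing each group by its sum moved the median step of all heated genes to 0.56 and the split to 802 lower and 5572 higher, whereas dividing by the median ratio of genes above 5 FPKM gave 2323 lower and 1307 higher. Values below are on the deposited scale. The value after division by summed FPKM stands beside a list's heated falls where their count vanishes or moves by over 1.5 times. It also stands beside a heated median given here that this division turned. Counts of rises and of controls are on the deposited scale unless stated. The division turned the sign of 8 of the 28 heated list medians.

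Many listed heat shock genes were lower at 2 h, and how many depended on the scale. Of 73 members of the 7 chaperone and factor lists that passed the filter, 46 were lower at 2 h than at 1 h and 0 were higher, with a median step of -1.34. After division by summed FPKM 26 were lower and 3 higher, with a median of -0.74. Counted relative to the median of all genes, 46 were lower and 0 higher on that scale, and 49 and 0 on the deposited scale. Subtracting that median removes most of any scaling. Likeness of such relative values between scales, here and below, thus follows from arithmetic and is no check. In the controls 2 of the 73 were lower and 0 higher, with a median step of -0.06. After division by summed FPKM 2 were lower and 5 higher in the controls, with a median of 0.18. These lists together took 9.80% of all FPKM in heated shoots at 2 h, against 18.4% at 1 h, and 0.446% and 0.388% in the controls at 2 h and 1 h. Of the 73 members 54 still stood at least 2-fold above the controls at 2 h, where 11.2% of all genes did, against 60 at 1 h, where 12.5% did. Of these members 48 were, in the authors' deposited table, higher in heated than in control shoots at 2 h, where 11.8% of all genes were, and 56 at 1 h, where 12% of all genes were.

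**Figure D1:**
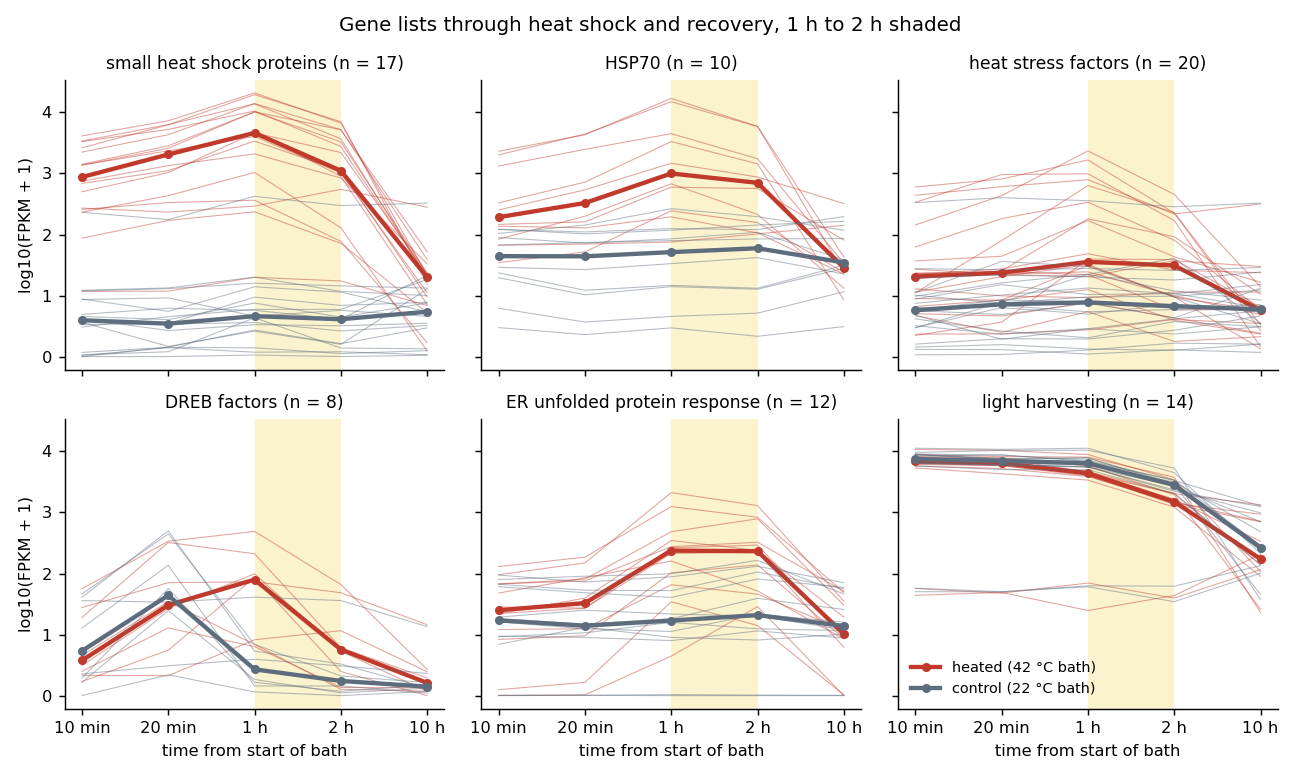
FPKM of each member of 6 gene lists on a log10(FPKM + 1) axis at the 5 sampling times, heated shoots in red and control shoots in grey; thin lines are members, thick lines are list medians, and n is the number of members past the filter. The interval from 1 h to 2 h is shaded: the heated medians of small heat shock proteins, HSP70 and DREB factors go down in it, that of the ER unfolded protein response list is near level (a median step of -0.22, or 0.38 after division by summed FPKM), and light harvesting transcripts go down in both heated and control shoots.

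Small heat shock proteins held the largest share of FPKM among these lists, 5.03% at 2 h and 9.75% at 1 h. Of 17 listed members past the filter 14 were lower and 0 were higher at 2 h in heated shoots, with a median step of -1.63, and 5 of the 17 had passed the filter only through heated values. The median member stood at 1108 FPKM at 2 h, against 4619 FPKM at 1 h. OS03G0266900, the most abundant at 1 h, stood at 6707 FPKM at 2 h, against 20882 FPKM at 1 h; its controls stood at 5.89 and 8.42 FPKM at 2 h and 1 h. OS01G0184100 stood at 7063 FPKM at 2 h, against 19586 FPKM at 1 h, and was the most abundant of the list at 2 h. The leading member of the list thus differed between the times. The authors' deposited table called 12 of the 17 higher in heated than in control shoots at 2 h; OS03G0266300 was not called, with a q of 0.54, although it stood at 5222 FPKM in heated shoots and 0.63 FPKM in controls.

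The members differed in how much they kept. Of the FPKM by which a member exceeded its control at 1 h, a median of 32.1% was left at 2 h over 15 members. The smallest share was that of OS11G0244200, with 12.3%; it stood at 128 FPKM at 2 h, against 1037 FPKM at 1 h. The largest was that of OS03G0245800, with 50.7%; it stood at 5194 FPKM at 2 h, against 10251 FPKM at 1 h. Its control value was 0.38 FPKM at 2 h and 3.33 FPKM at 1 h. Its heated step of -0.98 was short of a call, and its control step was -1.65, at a level of a few FPKM. Between these extremes, 4 members with neighbouring IDs on chromosome 3 (OS03G0266300, OS03G0266900, OS03G0267000 and OS03G0267200) kept 37.3%, 32.1%, 26.7% and 26.1%.

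A pair of IDs on this list stood apart, the first higher and the second slightly lower at 2 h, both short of a call. OS01G0135900 stood at 548.7 FPKM at 2 h, against 291.1 FPKM at 1 h in heated shoots, and its controls stood at 297.3 and 420.6 FPKM at 2 h and 1 h. OS05G0500500 stood at 16.4 FPKM at 2 h, against 18.9 FPKM at 1 h in heated shoots, and its controls stood at 10.7 and 19.0 FPKM at 2 h and 1 h. Neither was 2-fold above the controls at 1 h. In the authors' deposited table OS01G0135900 was among the 12 members called higher than controls at 2 h (q of 0.01), and OS05G0500500 was not called (q of 0.35). Whether these IDs belong on the list was not checked.

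The HSP100 list, disaggregases of the ClpB type, gave the steepest decline among the chaperones, with a median step of -2.07 and 3 of 3 members lower. OS05G0519700 stood at 1810 FPKM at 2 h, against 10361 FPKM at 1 h, and kept 17.5% of its excess over control. OS02G0181900 stood at 605.7 FPKM at 2 h, against 2547 FPKM at 1 h, and OS03G0426900 at 1331 FPKM, against 3207 FPKM. OS03G0426900 kept 40.9% of its excess and had the highest control level of the list, 32.3 FPKM at 2 h and 32.6 FPKM at 1 h. All 3 were still called higher than their controls at 2 h in the authors' deposited table.

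HSP90 members fell into separate ranges. Of 7 members past the filter, 1 of them only through heated values, 4 were lower at 2 h and 0 were higher, with a median step of -1.09. After division by summed FPKM 0 were lower and 0 higher, with a median of -0.50. OS04G0107900 (step -1.55), OS09G0482100 (step -1.48), OS08G0500700 (step -1.35) and OS09G0482600 (step -1.09) kept 32.6% to 41.7% of their excess over control. OS08G0500700, the most abundant, stood at 4119 FPKM at 2 h, against 10489 FPKM at 1 h. The other 3 members, OS12G0514500, OS08G0487800 and OS06G0716700, had steps of -0.63 to -0.12 and kept 61.5%, 74.7% and 86.3%. OS06G0716700 stood at 674.4 FPKM at 2 h, against 734.9 FPKM at 1 h, while its controls were at 71.6 and 36.2 FPKM at 2 h and 1 h. At 1 h these 3 stood at 132.3 to 734.9 FPKM in heated shoots and at 17.4 to 36.2 FPKM in controls.

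HSP70 members, the general folding chaperones, showed a similar range. Of 10 members 5 were lower, 0 were higher, and the median step was -1.04. After division by summed FPKM 1 was lower and 1 higher, with a median of -0.44. OS01G0840100 stood at 5924 FPKM at 2 h, against 16948 FPKM at 1 h, and OS03G0276500 at 5869 FPKM, against 14965 FPKM. OS03G0113700 had the largest step of the list, -1.67, at 212.4 FPKM at 2 h, against 677.7 FPKM at 1 h. OS11G0703900 hardly moved, at 564.0 FPKM at 2 h, against 596.2 FPKM at 1 h, where its controls stood at 142.1 and 116.7 FPKM. OS12G0244100 was at 101.2 FPKM at 2 h, against 74.2 FPKM at 1 h, close to its controls of 83.7 and 78.3 FPKM. The list thus held members far below their 1 h level beside members near it.

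Partners of HSP70 and HSP90 made up a further list. In the list of HSP40 and co-chaperones 6 of 8 members were lower and 0 higher, with a median step of -1.26; after division by summed FPKM 2 were lower and 0 higher, with a median of -0.66. OS02G0644100 stood at 456.3 FPKM at 2 h, against 1694 FPKM at 1 h (step -1.89), and OS03G0787300 at 2208 FPKM, against 6400 FPKM (step -1.53). OS03G0648400 was at 82.0 FPKM at 2 h, against 71.9 FPKM at 1 h. The chaperonins, barrel-shaped folding machines of chloroplasts and mitochondria, had the median step nearest to 0 of the 7 lists. Of their 8 members 1, OS07G0641700, was lower (285.2 FPKM at 2 h, against 674.7 FPKM at 1 h), with 0 lower after division by summed FPKM, and the list's median step was -0.40 on the deposited scale but 0.20 after division by summed FPKM, and -0.46 and -0.36 relative to the median of all genes on these scales. The authors' deposited table called all 8 chaperonins higher in heated than in control shoots at 2 h and at 1 h.

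Most heat stress transcription factors, the regulators of the chaperone genes, were lower too. Of 24 IDs 20 passed the filter, 3 of them only through heated values; 13 were lower at 2 h and 0 were higher, with a median step of -1.65. OS10G0419300 stood at 453.7 FPKM at 2 h, against 2345 FPKM at 1 h (step -2.37). OS03G0745000 stood at 223.3 FPKM at 2 h, against 1662 FPKM at 1 h (step -2.89), and OS06G0565200 at 168.6 FPKM, against 987.0 FPKM (step -2.54). These 3 were the factors of highest FPKM at 1 h, and their controls did not exceed 12.3 FPKM at either time. OS03G0161900, abundant in the controls too, was at 216.1 FPKM at 2 h, against 789.1 FPKM at 1 h. Its controls were at 283.6 and 356.9 FPKM at 2 h and 1 h, so at 2 h it lay within 2-fold of its control. It was not called against the controls at either time (q of 0.77 at 2 h and 0.18 at 1 h).

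Some factors did not follow. OS03G0854500 stood at 36.1 FPKM at 2 h, against 19.5 FPKM at 1 h, a step of 0.86 short of a call, with controls at 24.8 and 26.8 FPKM. OS01G0733200 was level at 37.8 FPKM at 2 h and 38.6 FPKM at 1 h, while its controls stood at 39.9 FPKM at 2 h and 21.2 FPKM at 1 h. OS02G0527300 was lower in the heated shoots (227.8 FPKM at 2 h, against 632.1 FPKM at 1 h) and by a similar step in the controls (8.47 FPKM, against 28.9 FPKM). Factors above their controls by 2-fold or more numbered 9 at 2 h, against 14 at 1 h. The authors' deposited table called 8 of the 20 higher at 2 h and 14 at 1 h.

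**Figure D2:**
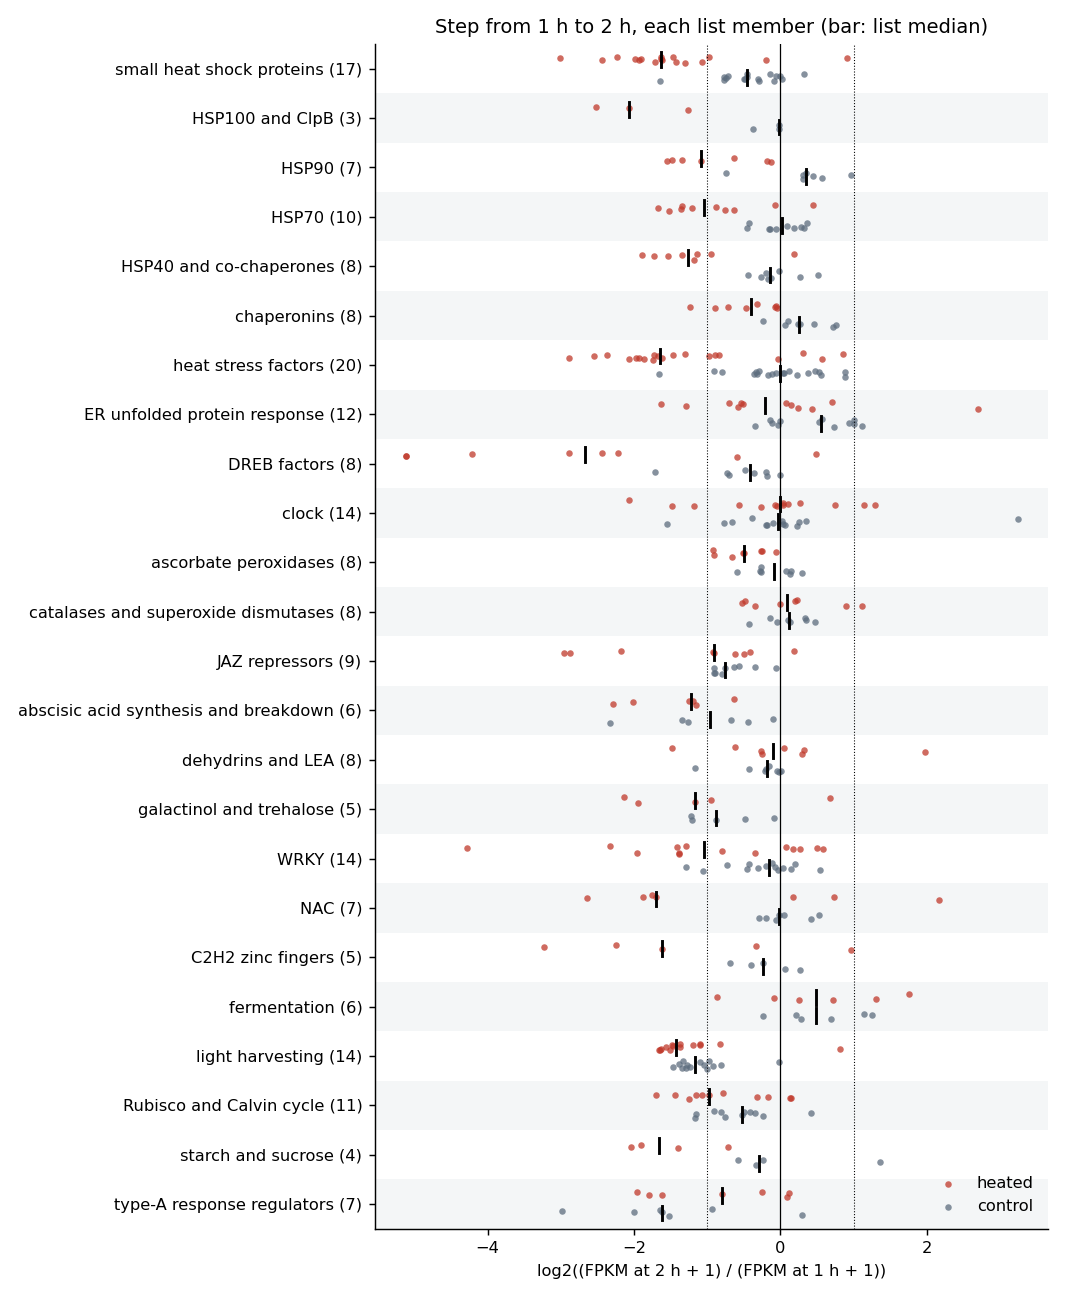
Log2 step from 1 h to 2 h of each member past the filter in 24 of the 28 lists, heated shoots in red above control shoots in grey, with a bar at each list's median and the number of members in brackets; dotted lines mark a 2-fold difference. Heated medians of the small heat shock protein, HSP100, heat stress factor and DREB lists lie at -1.63 or lower with control medians between -0.45 and 0.00, whereas both medians of light harvesting lie below -1.

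With the pseudocount of 1, the lowest median step of any list was that of the DREB factors. These are transcription factors of cold and drought responses that bind dehydration-responsive elements. Of 8 members past the filter, among which OS01G0968800 had passed only through its heated values, 6 were lower and 0 were higher in heated shoots, with a median step of -2.67. This median was -3.79 with a pseudocount of 0.1. With a pseudocount of 5 it was -1.93, and the HSP100 list then stood lower, at -2.06. In the controls 1 was lower, and the median step was -0.42. OS09G0522000 stood at 5.07 FPKM at 2 h, against 209.9 FPKM at 1 h, and OS01G0968800 at 1.48 FPKM, against 85.1 FPKM. Both steps were -5.12, the largest falls among the 7491 genes with at least 20 FPKM in 1 of the heated groups and above 0 in both. In the authors' deposited table OS01G0968800 was not called against its controls at 1 h, with a q of 0.41, but was called at 2 h. OS06G0127100 stood at 4.34 FPKM at 2 h, against 97.9 FPKM at 1 h. OS09G0522200 stood at 65.1 FPKM at 2 h, against 488.9 FPKM at 1 h, with controls at 1.10 and 5.91 FPKM.

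Members of the DREB list differed from each other in their earlier course. In heated shoots OS09G0522000 read 321.8 FPKM at 20 min and 209.9 FPKM at 1 h, while in controls it read 500.4 FPKM at 20 min and 4.36 FPKM at 1 h. OS09G0522200 read 337.1 FPKM at 20 min and 488.9 FPKM at 1 h in heated shoots, and 444.8 FPKM at 20 min and 5.91 FPKM at 1 h in controls. Both were thus still high at 1 h in heated shoots, and high at 20 min but low at 1 h in controls. OS01G0968800, by contrast, read 4.55 FPKM at 20 min and 85.1 FPKM at 1 h in heated shoots, and 1.19 FPKM or less in controls at 20 min, 1 h and 2 h. OS01G0165000, of the same list, had a step of 0.49, at 10.6 FPKM at 2 h and 7.23 FPKM at 1 h.

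Of 14 WRKY factors, which act in defence signalling, 7 were lower and 0 higher, with a median step of -1.05; after division by summed FPKM 4 were lower and 1 higher, with a median of -0.49. OS09G0417600 was the extreme, at 10.8 FPKM at 2 h, against 227.0 FPKM at 1 h, with controls at 9.17 and 23.9 FPKM. Of 7 NAC factors, which act in drought and ageing responses, 4 were lower and 1 was higher. OS03G0815100 stood at 393.6 FPKM at 2 h, against 2464 FPKM at 1 h, and OS01G0884300 at 340.8 FPKM, against 1250 FPKM. The higher one, OS11G0126900, which had passed the filter only through heated values, stood at 9.60 FPKM at 2 h, against 1.36 FPKM at 1 h, with controls at 0.77 and 0.85 FPKM. Of 5 C2H2 zinc finger factors past the filter, 1 of them only through heated values, 3 were lower, led by OS03G0820400 at 17.4 FPKM at 2 h, against 170.9 FPKM at 1 h. The C2H2 median step of -1.62 depended on the settings. It was -2.25 with a pseudocount of 0.1, -0.67 with a pseudocount of 5, where 2 were lower, and -0.98 with no filter on low values.

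Repressors of jasmonate signalling of the JAZ type split. Of 9 members 3 were lower in heated shoots, with steps of -2.96 to -2.18, and 0 were higher; the other 6 had steps of -0.92 to 0.18. OS10G0391400 stood at 20.6 FPKM at 2 h, against 158.0 FPKM at 1 h, with controls at 0.69 and 2.18 FPKM. The median step was -0.91 in heated shoots and -0.75 in controls. Of 7 jasmonate synthesis genes 0 were called in either direction in heated shoots, where 6.93% of all genes were higher and 8.80% lower. The median step of -0.11 became 0.47, with 1 gene higher, after division by summed FPKM. Relative to the median of all genes these medians were -0.17 and -0.10.

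The ER unfolded protein response list, which holds the chaperones and folding enzymes of the secretory pathway and the bZIP factors that control them, differed little between the times in its median level. Of 12 members past the filter, 2 of them only through heated values, 2 were lower and 1 was higher at 2 h in heated shoots. Over all genes 8.80% were lower and 6.93% higher, and counts this small do not set the list apart. After division by summed FPKM 1 member was lower and 3 were higher. The median member stood at 231.0 FPKM at 2 h and 238.0 FPKM at 1 h. The median step was -0.22, but 0.38 after division by summed FPKM and 0.11 with no filter on low values; relative to the median of all genes it was -0.28 on the deposited scale and -0.18 after division by summed FPKM. All 12 stood at least 2-fold above their controls at 2 h and at 1 h, where 11.2% and 12.5% of all genes did. A median of 85.7% of the excess was left. In the controls 3 members were higher at 2 h and 0 were lower, with a median step of 0.55. After division by summed FPKM 5 were higher there, with a median of 0.84. The authors' deposited table called 10 of the 12 higher in heated than in control shoots at both times.

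Single members of this list moved in opposite directions. OS05G0428600 was higher, at 27.7 FPKM at 2 h, against 3.44 FPKM at 1 h, with controls at 0.02 and 0.04 FPKM; in the authors' deposited table it was not called against the controls at either time (q of 0.60 at 2 h and 0.45 at 1 h). OS11G0199200 stood at 786.7 FPKM at 2 h, against 483.5 FPKM at 1 h, a step of 0.70 short of a call, and its controls made a similar step of 0.73 (163.6 FPKM, against 98.0 FPKM). OS02G0115900, the most abundant, stood at 1298 FPKM at 2 h, against 2116 FPKM at 1 h (step -0.70), while its controls stood at 104.8 FPKM, against 51.5 FPKM (step 1.01). OS07G0644100 was lower, at 50.9 FPKM at 2 h, against 159.3 FPKM at 1 h, with controls at 7.13 and 8.01 FPKM. OS03G0710500 was lower as well, at 13.1 FPKM at 2 h, against 33.5 FPKM at 1 h, and was listed at 0 in both controls.

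The list of dehydrins and LEA proteins, which shield membranes and proteins from water loss, had 1 member higher and 1 lower of 8, 3 of which had passed the filter only through heated values; over all genes 6.93% were higher and 8.80% lower. Its median step of -0.10 became 0.44, with 0 lower, after division by summed FPKM; relative to the median of all genes these were -0.17 and -0.12. OS05G0542500 stood at 381.7 FPKM at 2 h, against 96.8 FPKM at 1 h (step 1.97), and its controls stood at 2.49 and 3.71 FPKM. OS02G0669100, far more abundant, stood at 1862 FPKM at 2 h, against 2865 FPKM at 1 h (step -0.62), and its controls were lower at 2 h too, 59.3 FPKM against 134.1 FPKM. Of 5 genes of galactinol and trehalose synthesis, makers of protective sugars, 3 were lower in heated shoots and 2 in controls. After division by summed FPKM 2 were lower and 1 higher in heated shoots, and 0 were lower in controls. OS03G0316200 stood at 133.5 FPKM at 2 h, against 590.0 FPKM at 1 h, whereas OS07G0687900 stood at 81.9 FPKM, against 50.8 FPKM.

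Few listed enzymes that remove reactive oxygen were called, where 6.93% of all genes were higher and 8.80% lower. With lists this short, few calls do not set these enzymes apart from all genes. Of 8 ascorbate peroxidases 0 were called, with a median step of -0.50 on the deposited scale that became 0.03 after division by summed FPKM; relative to the median of all genes these were -0.57 and -0.53. OS07G0694700 had the largest step, at 1231 FPKM at 2 h, against 2325 FPKM at 1 h, with controls at 413.9 and 497.1 FPKM. Of 8 catalases and superoxide dismutases 1 was higher (2 after division by summed FPKM), OS06G0727200, at 74.7 FPKM at 2 h, against 34.0 FPKM at 1 h, with controls at 59.7 and 42.6 FPKM. OS02G0115700, of the same list, stood at 509.8 FPKM at 2 h and 446.1 FPKM at 1 h in heated shoots, far under its controls of 1576 and 1249 FPKM. Of 6 fermentation and submergence genes past the filter, 1 of them only through heated values, 2 were higher in heated shoots and 2 in controls. OS08G0473900 stood at 93.4 FPKM at 2 h, against 27.0 FPKM at 1 h, with controls at 0.26 and 0.49 FPKM, and OS02G0730000 at 71.1 FPKM, against 28.2 FPKM, with controls at 3.47 and 0.88 FPKM.

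Many photosynthetic transcripts were lower at 2 h with and without heat on the deposited scale. Light harvesting proteins, which bind chlorophyll and feed the photosystems, had 12 of 14 members lower at 2 h in heated shoots and 10 of 14 in controls, with median steps of -1.42 and -1.17. After division by summed FPKM 3 were lower and 1 was higher in heated shoots and 4 were lower in controls, with medians of -0.82 and -0.87; relative to the median of all genes 12 heated members were lower on either scale. The step differed between heated and control shoots by less than 2-fold in every member. OS01G0600900, the most abundant at 1 h in heated shoots, stood there at 3436 FPKM at 2 h, against 8886 FPKM at 1 h, and in controls at 4489 FPKM, against 11297 FPKM. As a check of the labelled tissue, these levels were high and 3 of 4 root markers did not reach a mean of 1 FPKM; the other root marker, OS02G0745100, stood at 25.6 FPKM at 2 h and 36.7 FPKM at 1 h in heated shoots and at 6.10 and 20.4 FPKM in controls. Of 11 Rubisco and Calvin cycle genes, which fix carbon, 5 were lower in heated shoots and 2 in controls; after division by summed FPKM these were 1 and 0, with a heated median of -0.38 in place of -0.98. OS11G0707000 was lower in both, at 803.4 FPKM at 2 h, against 2609 FPKM at 1 h, in heated shoots, and at 833.1 FPKM, against 1874 FPKM, in controls.

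Of 4 listed genes of starch and sucrose synthesis, which store and export fixed carbon, 3 were lower in heated shoots, with a median step of -1.66, and in controls 0 were lower and 1 was higher. OS05G0580000 went in opposite directions: it stood at 10.5 FPKM at 2 h, against 42.1 FPKM at 1 h, in heated shoots, and at 47.6 FPKM, against 17.9 FPKM, in controls. OS01G0919400 stood at 10.3 FPKM at 2 h, against 45.5 FPKM at 1 h, in heated shoots, and at 22.8 FPKM, against 34.5 FPKM, in controls. OS01G0866400 stood at 51.8 FPKM at 2 h, against 138.8 FPKM at 1 h, in heated shoots, and at 116.9 FPKM, against 138.7 FPKM, in controls. In the authors' deposited table these 3 were called lower in heated than in control shoots at 2 h (6.98% of all genes) and 0 of the 4 was called lower at 1 h (8.74% of all genes).

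Clock genes, whose levels turn over with the time of day, gave no common direction: 3 of 14 were lower and 2 higher in heated shoots, and 1 was lower and 1 higher in controls. Over all genes 8.80% were lower and 6.93% higher in heated shoots, and 2.48% were lower and 2.85% higher in controls. Counts this small do not set the clock list apart from all genes. The heated median of -0.01 became 0.57, with 1 lower and 3 higher, after division by summed FPKM; relative to the median of all genes these were -0.08 and 0.01. OS08G0157600 was lower in both, at 10.6 FPKM at 2 h, against 47.5 FPKM at 1 h, in heated shoots, and at 9.04 FPKM, against 28.5 FPKM, in controls. OS01G0971800 was higher in both, but less so after heat, at 84.9 FPKM at 2 h, against 34.0 FPKM at 1 h, in heated shoots, and at 205.8 FPKM, against 20.9 FPKM, in controls. OS07G0695100 was lower in heated shoots, at 15.2 FPKM at 2 h, against 44.3 FPKM at 1 h, with controls at 29.9 and 39.4 FPKM and a control step of -0.38. Of 6 genes of abscisic acid synthesis and breakdown past the filter, 1 of them only through heated values, 5 were lower in heated shoots and 3 in controls. After division by summed FPKM 2 of 7 were lower in heated shoots and 3 in controls. OS02G0703600 was lower in both, at 20.4 FPKM at 2 h, against 102.9 FPKM at 1 h, in heated shoots, and at 6.11 FPKM, against 34.8 FPKM, in controls. Type-A response regulators, which damp cytokinin signals, were lower in 3 of 7 cases in heated shoots and in 5 of 7 in controls, with median steps of -0.80 in heated shoots and -1.62 in controls.

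**Figure D3:**
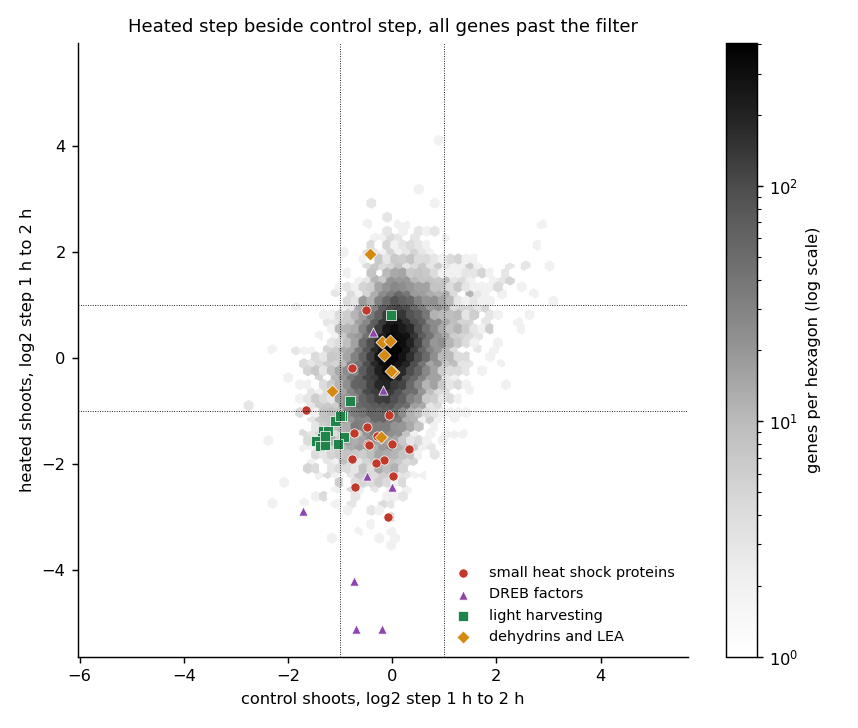
Log2 step from 1 h to 2 h in heated shoots (vertical axis) against the step in control shoots (horizontal axis) for all 22704 genes, shaded by the number of genes per hexagon on a log scale, with members of 4 lists marked; dotted lines mark 2-fold. Light harvesting members lie low on both axes, small heat shock proteins and DREB factors low mainly on the heated axis, and a single dehydrin and LEA member lies at a heated step of 1.97.

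Over all genes the heated and control steps, which have no sample in common, overlapped in part. Of the 1998 genes lower in heated shoots 265 (13.3%) were also lower in controls, which is 47.2% of the 562 genes lower there. Of the 1574 genes higher in heated shoots 263 (16.7%) were also higher in controls, or 40.6% of the 647 higher there. Opposite calls were few, 29 genes lower in heated and higher in control shoots and 18 the other way. Across the 22704 genes Pearson's r between both steps was 0.38 and Spearman's rho 0.35, as a description, since genes share libraries and are not independent. The heated step lay at least 2-fold below the control step in 1776 genes (7.82%) and above it in 1537 (6.77%). Among the 73 heat shock list members these numbers were 43 below and 1 above.

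The size of the early heat effect was compared with the later step through the 20 min groups, which share no sample with the 1 h and 2 h groups. The authors' deposited table called 777 genes higher in heated than in control shoots at 20 min (3.42%) and 1418 lower (6.25%). Of the 77 with a log2 ratio of 4 or more at 20 min, 73 were lower at 2 h than at 1 h in heated shoots and 0 were higher, with a median step of -1.79. Of the 128 with a ratio of 2 to 4, 75 were lower and 17 higher, with a median step of -1.13. Of the 572 with a ratio under 2, 140 were lower and 65 higher, with a median step of -0.13. The medians of control steps in these classes were -0.06, 0.05 and 0.29. Genes called lower at 20 min were lower in 186 cases and higher in 194, with a median step of 0.04, or -0.04 with 213 lower and 158 higher after division by the median ratio, and 0.55 with 85 lower and 439 higher after division by summed FPKM. Over these 3 classes a larger ratio at 20 min thus went with a lower median step at 2 h. After division by summed FPKM the class medians were -1.20, -0.60 and 0.37, with 48, 40 and 69 genes lower and 0, 19 and 161 higher; relative to the median of all genes they were -1.76, -1.16 and -0.19. They rest on calls of the authors' deposited table, and the heat shock list members are among the genes they hold.

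**Figure D4:**
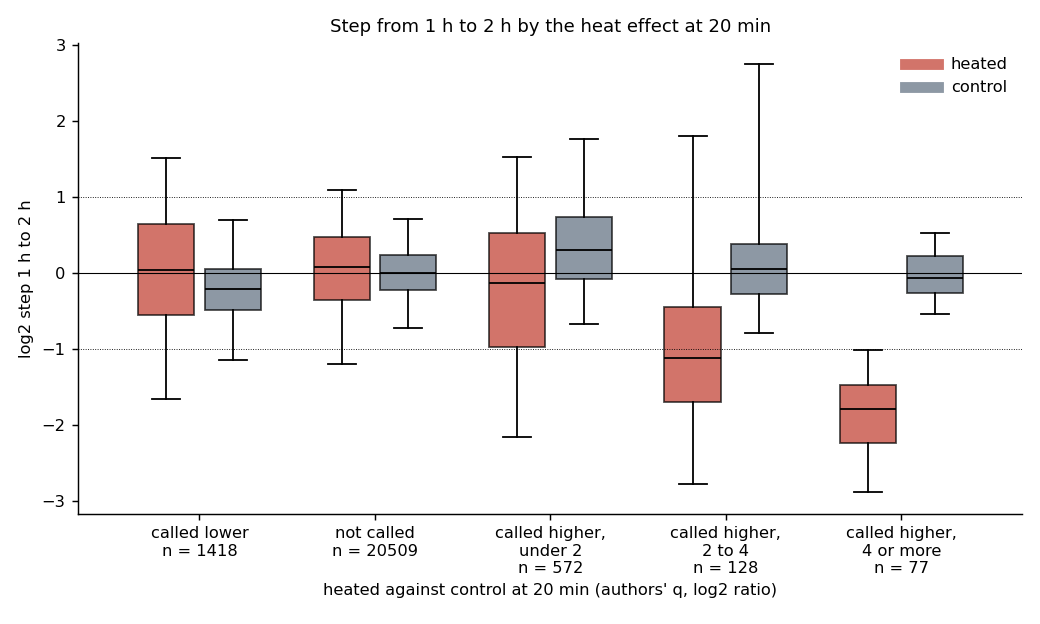
Log2 step from 1 h to 2 h of genes grouped by the authors' call and the log2 ratio of heated to control shoots at 20 min, heated shoots in red and controls in grey; boxes show the quartiles and median, whiskers the 5th to 95th percentile over genes, and n the genes per class. The heated median goes from -0.13 to -1.13 and -1.79 as the ratio at 20 min grows, while control medians stay between -0.06 and 0.29 in these classes; after division by summed FPKM the 3 heated medians are 0.37, -0.60 and -1.20.

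The genes that moved were also placed beside the controls of the same time. These positions use the same heated values as the step and are a description. Of the 1998 genes lower at 2 h, 1055 (52.8%) had stood at least 2-fold above their controls at 1 h, where 12.5% of all genes did. Of these 1055, 536 were still above at 2 h, 500 were within 2-fold and 19 were below. A further 286 had been within 2-fold at 1 h and lay at least 2-fold below the controls at 2 h. Their median was 5.21 FPKM at 2 h, against 19.4 FPKM at 1 h, in heated shoots, and 17.6 and 22.5 FPKM in controls. Another 605 were within 2-fold of the controls at both times, with a median control step of -0.63. At 2 h 27.2% of the 1998 stood above the controls and 17.4% below, where 11.2% and 6.04% of all genes did.

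Of the 1574 genes higher at 2 h, 92.0% stood within 2-fold of the controls or below them at 1 h, where 87.5% of all genes did. The largest class was 695 genes within 2-fold of the controls at both times. Of the 1574, 481 (30.6%) had stood at least 2-fold below their controls at 1 h, where 7.94% of all genes did. Of these 481, 407 were within 2-fold at 2 h. Their median was 10.4 FPKM at 2 h, against 3.35 FPKM at 1 h, in heated shoots, and 11.8 and 11.1 FPKM in controls. A further 263 went from within 2-fold at 1 h to at least 2-fold above the controls at 2 h, with a median of 19.8 FPKM at 2 h, against 5.83 FPKM at 1 h, and controls at 5.40 and 5.46 FPKM. A further 102 stood above the controls at both times. At 2 h 24.4% of the 1574 stood above the controls, where 11.2% of all genes did. At 10 h, in other shoots, 1827 of the 1998 lower genes and 1458 of the 1574 higher ones were within 2-fold of the controls, which is 91.4% and 92.6%, below the 97.2% of genes that had not moved by 2-fold and the 96.4% of all genes.

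**Figure D5:**
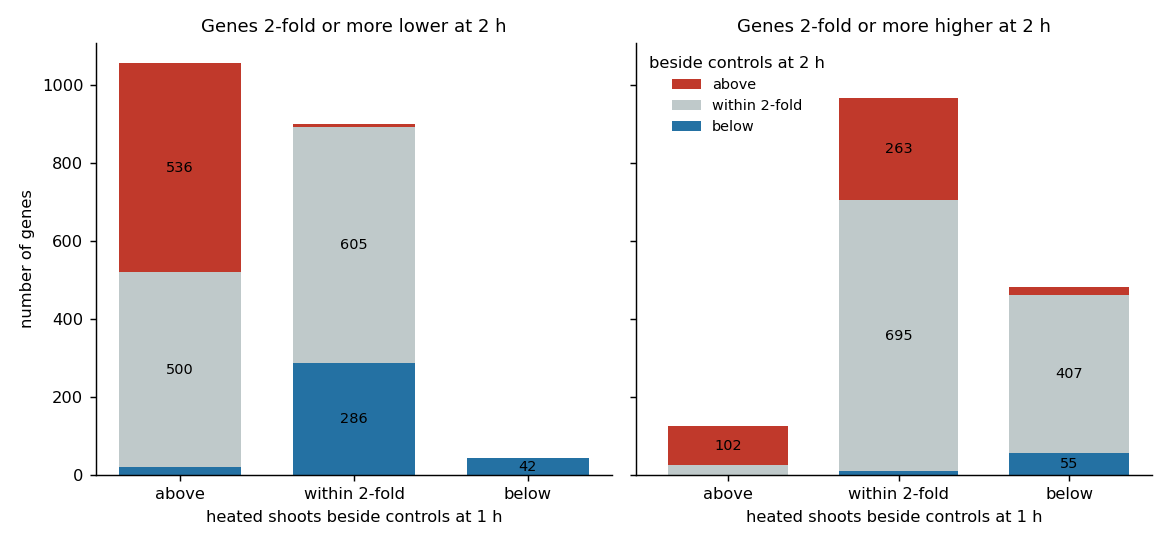
Number of genes at least 2-fold lower (left) or higher (right) at 2 h than at 1 h in heated shoots, by where heated shoots stood beside the controls at 1 h (bars) and at 2 h (colours); above and below mean at least 2-fold. Of the lower genes 536 stayed above the controls and 500 reached them, and of the higher genes 407 that had been below at 1 h were within 2-fold at 2 h.

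Outside the lists, the genes with the largest steps had no name in the files. The 12 largest falls among genes with at least 20 FPKM in 1 heated group had steps of -5.12 to -3.84, and 4 of them were on the DREB and WRKY lists above. The 12 largest rises had steps of 3.15 to 5.43, none was on a list, and all 12 were above 0 in the control step, 8 of them called higher there too. OS11G0211800 stood at 44.3 FPKM at 2 h, against 0.05 FPKM at 1 h, in heated shoots, and at 18.7 FPKM, against 0.28 FPKM, in controls. OS03G0738600 stood at 39.2 FPKM at 2 h, against 0.40 FPKM at 1 h, in heated shoots, and at 3.70 FPKM, against 0.31 FPKM, in controls. Both were called higher in heated than in control shoots at 2 h in the authors' deposited table and neither at 1 h.

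From 20 min to 1 h, 3103 genes (13.7%) were higher and 1069 (4.71%) lower in heated shoots, and from 2 h to 10 h, 3359 (14.8%) were higher and 3474 (15.3%) lower. These steps share the 1 h or the 2 h shoots with the present one, so they are given side by side only. The median small heat shock protein stood at 18.9 FPKM at 10 h in heated shoots, and 8 of the 17 members were then at least 2-fold above the controls, against 15 at 2 h. Of the 73 chaperone and factor list members 13 were at least 2-fold above their controls at 10 h and 3 below, where 1.97% and 1.64% of all genes were. Of the 40 heat stress factor, DREB and ER list members 0 were above. At that share over all genes, a count of 0 does not set these 40 apart. Of 5 actin, elongation factor and ubiquitin genes often used as internal standards, 1 was lower at 2 h than at 1 h in heated shoots, with a median step of -0.43 that became 0.17, with 0 lower, after division by summed FPKM; relative to the median of all genes these were -0.49 and -0.39. Of 3 photoperiod flowering genes past the filter 0 were called in heated shoots, where 6.93% of all genes were higher and 8.80% lower.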

How the data were processed

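Reads were trimmed with cutadapt, aligned with TopHat2 and turned into expression values with Cufflinks on rice build IRGSP-1.0, per the submitters' processing notes, which name the tools without versions in what was used here. The authors deposited 1 table with an FPKM value for each of 10 groups, made from 2 libraries each, so no value per library, SD or read total was analysed here, and 0 columns belonged to other samples. The same deposited table holds q values of heated against control shoots at each time, written to 2 decimals; the authors' test is not stated, and its fold changes were not used.

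Of 48683 rows, the row of highest mean FPKM was kept for each of 37248 gene IDs, 8490 of which were on several rows. Of the 22704 genes past the filter (mean of at least 1 FPKM), 2933 share all values with another ID and cannot be told apart from it. Steps are log2 ratios with a pseudocount of 1, computed with Python 3.11.15, numpy 2.4.6 and pandas 2.3.3, and the procedure was checked on simulated data. Alternatives were other pseudocounts, filters and scalings and summed rows. Every list member could be named, and beside them the 12 largest rises and falls among genes with at least 20 FPKM in a heated group and above 0 in both, of which 2 a direction are printed by ID. The comparison, lists and rules were chosen with earlier results of these data known. The reference table matched 0 gene IDs, so no sequence, position or gene name is given.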

Additional observations from a re-analysis of the deposited data

Results flagged for a closer look

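The listed starch and sucrose gene OS05G0580000 moved in opposite directions, with a step of -1.91 in heated shoots and 1.36 in controls between 1 h and 2 h. With 1 value per group this difference was not tested.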

How the results depend on the processing

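No paired analysis was possible because the table holds 1 column per group, and for the same reason no library could be left out in turn. No list median of at least 1 in size turned its sign. Nor did the steps of the 2 largest rises and 2 largest falls printed by ID. Other printed genes were not followed one by one through these settings. Smaller medians did turn: those of 8 of 28 lists under summed FPKM, 6 with the chaperone and factor lists left out of the sum, 1 under the median ratio and 1 with no filter. The balance of calls in heated shoots also turned towards higher under both sum scalings. With a pseudocount of 0.1, genes higher in heated shoots numbered 2530, genes higher and lower in controls 1170 and 893, and genes whose heated step exceeded the control step 2331. With a pseudocount of 5 these were 507 higher and 1219 lower in heated shoots, 178 and 291 in controls, and 607 and 876 for the difference of steps. With the filter raised to 5 FPKM on average, 1003 genes were higher in heated shoots, 302 higher in controls and 1122 had the lower heated step. Scaling to the same summed FPKM gave 5572 higher and 802 lower in heated shoots, 1294 and 318 in controls, and 2816 and 1122 for the difference; with the chaperone and factor lists left out of the sum it gave 4449 and 1039 in heated shoots and 1306 and 318 in controls. These shifts follow the median heated step of all genes, 0.56 and 0.45 under the 2 sum scalings, against 0.07 as deposited. Relative to that median the small heat shock protein list stood at -1.59 under summed FPKM and -1.69 as deposited, and the DREB list at -2.77 and -2.73. Subtracting the median removes most of a scaling, so this closeness follows from arithmetic and is no check. At a q below 0.01 in the authors' deposited table, 471 genes were higher and 727 lower at 20 min, 1062 lower at 1 h and 848 lower at 2 h. No value is given for the photoperiod list at a mean of 5 FPKM, where no member was left. Depth is unknown, so counting error could not be given.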
